A study of Mus musculus with 16 samples.

Results

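The matrix metalloproteinases (MMPs) and tissue inhibitors of metalloproteinases (TIMPs) covered here are 9 of the 20200 genes of a bulk RNA-seq count table, namely Mmp8, Mmp9, Mmp12, Mmp13, Mmp14, Mmp19, Timp1, Timp2 and Timp3, taken by their gene names. They were followed in myeloid cells sorted from the bone-tendon interface of mouse knees on days 1 and 14 after anterior cruciate ligament reconstruction (ACLR), in which a tendon graft is drawn through bone tunnels. The 4 populations were CD9+ macrophages (Ly6G-, CD11b+, F4/80+, CD9+), CX3CR1+ macrophages (the same gate with CX3CR1+ and CD9-), F4/80- myeloid cells (Ly6G-, CD11b+, F4/80-) and neutrophils (Ly6G+, Ly6C+), all of them live, Lin- and CD45+. Each population has 2 libraries on each day, so there are 8 groups and 16 libraries. All mice were adult male wild-type (WT) animals of strain C57BL/6 (C57BL/6J in the methods) that had surgery, no group came from an unoperated knee, and each library pooled the cells of several mice, so that replicates show the spread between pools. By the methods, populations shared mice, since the libraries came from fewer mice than separate pools would need. The labels of the CD9+ gate exclude no CX3CR1+ cells.

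MMPs are zinc-dependent endopeptidases that together can cleave most proteins of the extracellular matrix, and most of them are made as inactive precursors. The TIMPs are small secreted proteins that bind active MMPs and block them, and TIMP2 can also take part in activating pro-MMP2 on the membrane-bound MMP14. Neutrophils store MMP8 (a collagenase) and MMP9 (a gelatinase) in granules, and macrophages are known for MMP12 (macrophage elastase) and MMP14. In bone and healing tendon, MMP9, MMP13 and MMP14 are known for the turnover of collagen and cartilage matrix, and MMP9 is also abundant in osteoclasts.

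The members lie on 6 chromosomes of the mouse genome mm10 (GRCm38). Mmp13 (chromosome 9, 7272514 to 7283331), Mmp12 (chromosome 9, 7344381 to 7369499) and Mmp8 (chromosome 9, 7558456 to 7568485) all lie on the plus strand of chromosome 9. Mmp14 lies on chromosome 14 (54431612 to 54445364), Mmp19 on chromosome 10 (128790910 to 128800824), Mmp9 on chromosome 2 (164940780 to 164955850) and Timp1 on chromosome X (20870166 to 20874735), all on the plus strand. Timp2 lies on the minus strand of chromosome 11 (118301069 to 118355740) and Timp3 on the plus strand of chromosome 10 (86300372 to 86349506). RefSeq promoter sequences (GRCm38.p6, 250 bases before to 50 after a start) matched 7 members with 8 entries. Those of the chromosome 9 members are shown because their levels ran differently in the same cells, and those of Mmp14 and Timp1 because these genes fell together over time in 3 populations. The 250 bases before the start are given 5′ to 3′ on the plus strand, and capitals mark matches on either strand to AP-1 (TGANTCA), C/EBP (TTGCNNAA), PU.1 (GAGGAAGT) or NF-kappaB motifs.
Mmp13, chr9:7272264-7272513: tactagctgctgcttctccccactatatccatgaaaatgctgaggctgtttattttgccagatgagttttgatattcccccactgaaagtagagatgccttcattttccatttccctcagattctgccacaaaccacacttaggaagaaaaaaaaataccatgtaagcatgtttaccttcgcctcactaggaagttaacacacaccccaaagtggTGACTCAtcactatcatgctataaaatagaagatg
Mmp12, upstream start, chr9:7344147-7344396: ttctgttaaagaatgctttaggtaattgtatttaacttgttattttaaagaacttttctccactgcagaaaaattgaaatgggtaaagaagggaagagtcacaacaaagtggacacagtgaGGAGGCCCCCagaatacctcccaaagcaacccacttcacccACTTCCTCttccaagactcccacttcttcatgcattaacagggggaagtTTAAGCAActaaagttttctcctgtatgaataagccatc
Mmp12, downstream start, chr9:7347124-7347373: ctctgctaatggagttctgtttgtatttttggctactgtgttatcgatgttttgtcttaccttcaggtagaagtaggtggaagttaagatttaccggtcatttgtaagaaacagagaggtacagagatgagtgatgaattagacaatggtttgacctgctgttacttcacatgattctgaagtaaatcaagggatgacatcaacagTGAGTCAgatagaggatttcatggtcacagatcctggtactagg
Mmp8, chr9:7558179-7558428: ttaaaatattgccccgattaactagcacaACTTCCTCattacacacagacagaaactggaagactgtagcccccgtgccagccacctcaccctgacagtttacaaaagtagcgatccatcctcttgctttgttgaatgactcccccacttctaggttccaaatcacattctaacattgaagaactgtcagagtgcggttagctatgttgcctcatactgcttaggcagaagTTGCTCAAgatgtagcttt
Mmp14, chr14:54431348-54431597: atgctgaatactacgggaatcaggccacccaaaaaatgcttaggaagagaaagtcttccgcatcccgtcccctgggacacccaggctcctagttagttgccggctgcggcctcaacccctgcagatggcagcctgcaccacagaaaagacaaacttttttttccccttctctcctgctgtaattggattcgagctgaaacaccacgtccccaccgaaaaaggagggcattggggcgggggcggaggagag
Timp1, chrX:20869916-20870165: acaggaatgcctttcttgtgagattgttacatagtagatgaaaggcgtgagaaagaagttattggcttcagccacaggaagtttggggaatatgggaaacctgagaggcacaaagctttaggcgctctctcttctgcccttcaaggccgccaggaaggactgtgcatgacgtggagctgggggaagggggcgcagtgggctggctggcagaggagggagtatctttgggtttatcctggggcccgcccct
The capitals are an AP-1 match from base -35 in Mmp13 and from base -44 before the downstream start of Mmp12. Before the upstream start of Mmp12 they are an NF-kappaB match from -129, a PU.1 match from -88 and a C/EBP match from -39, and in Mmp8 a PU.1 match from -221 and a C/EBP match from -19. The windows of Mmp14, Timp1, Timp2 and Timp3 held no match to these letters. Among all 32851 RefSeq promoter windows, 7.81% held the AP-1 letters, 10.8% the C/EBP letters, 3.2% the PU.1 letters and 8.46% the NF-kappaB motif, and a match is a description of the sequence only.

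Levels are given as CPM, a count relative to the library total, scaled with TMM factors, from 10587857 to 19814119 counts per library on day 1 and 9233952 to 12721779 on day 14. Of the 9 members, 8 passed the filter of a mean of at least 3 CPM in at least 1 group, which 11998 genes passed. Timp3, an inhibitor that binds to the matrix, did not, with between 0 and 21 counts in a library and 82 in all. A gene passed the test where edgeR's quasi-likelihood test gave a Benjamini-Hochberg adjusted p under 0.05 over all tested genes and the log2 fold change was at least 1 in size. The sort genes were in place in part: Adgre1, which encodes F4/80, was at 119.9 to 216 CPM in both macrophage gates and at 8.40 to 13.8 in F4/80- cells, while Cd9 was at 6.48 to 21.0 in CX3CR1+ macrophages, 142 to 183 in CD9+ macrophages and 345 to 676 in neutrophils. The 2 CD9+ libraries of day 1 were the least alike of any pair (Pearson correlation of log2 CPM across genes 0.935, against 0.976 to 0.988 elsewhere). The sum of 6 neutrophil markers (Ly6g, S100a8, S100a9, Csf3r, Cxcr2 and Retnlg) was 7054 CPM in the first of them and 2237 in the second, and in the first Mmp9 and Timp2 were higher and Mmp14, Mmp19 and Timp1 lower than in the second. In bulk samples, fewer cells of a type and less RNA per cell cannot be told apart.

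**Figure D1:**
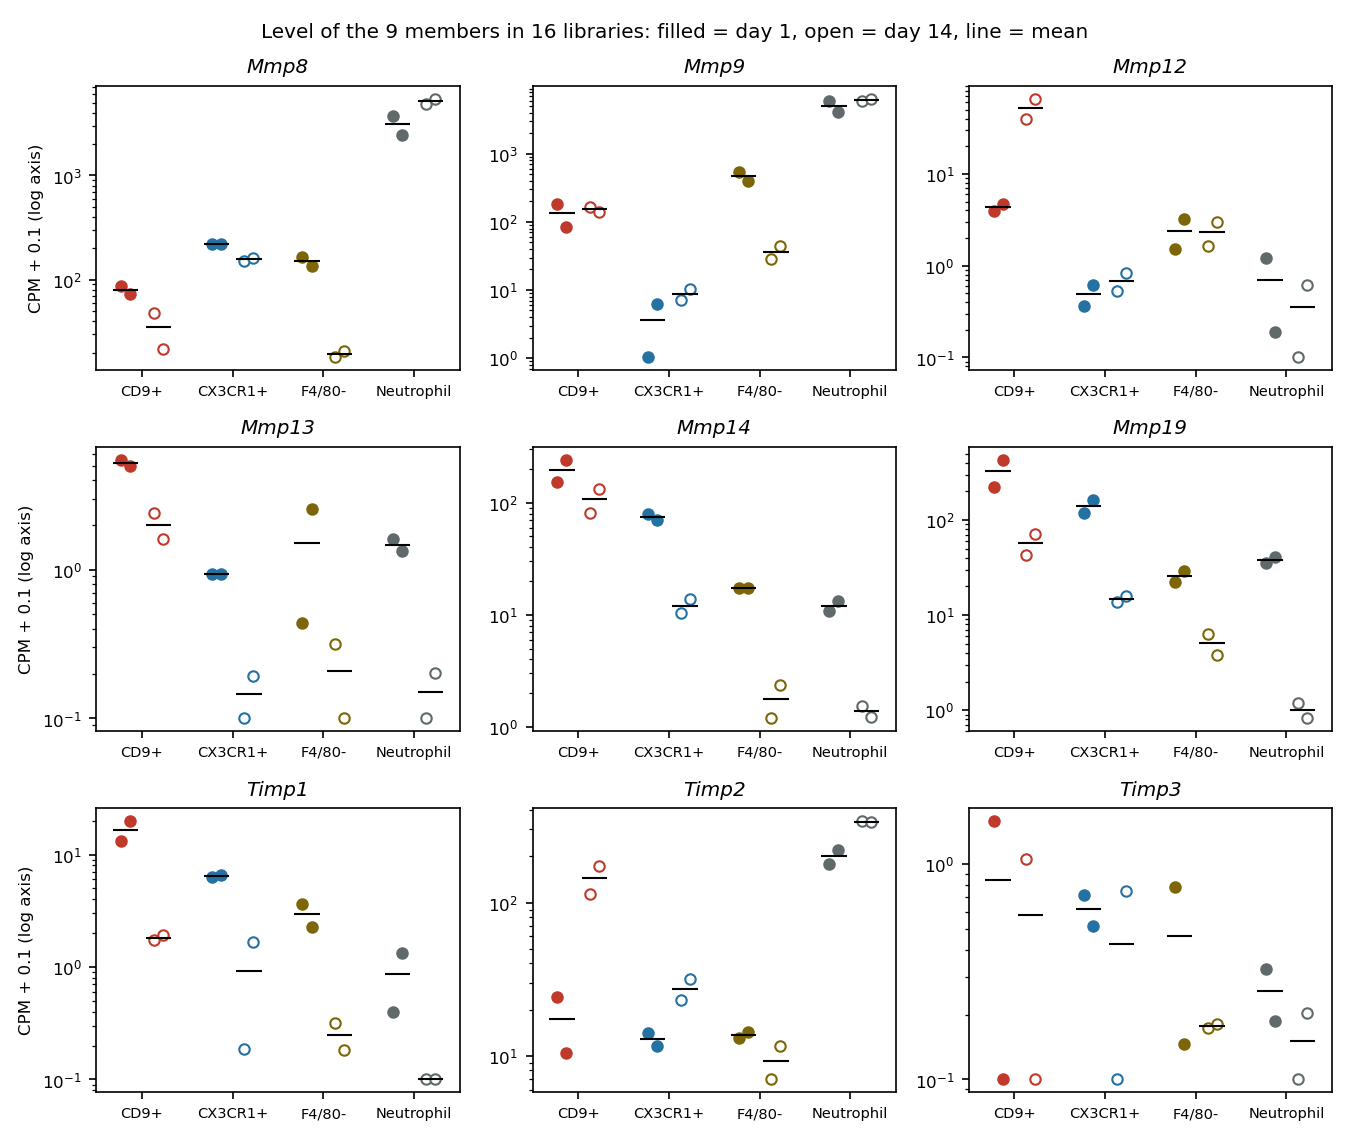
Level of each member in the 16 libraries, as CPM plus 0.1 on a log axis that differs between panels, by population, with filled points for day 1, open points for day 14 and a line at the mean of the 2 libraries. Mmp8, Mmp9 and Timp2 are highest in neutrophils, and Mmp12, Mmp13, Mmp14, Mmp19 and Timp1 in CD9+ macrophages.

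Mmp8 and Mmp9, the granule collagenase and gelatinase, were by far most abundant in neutrophils, but they parted from each other in the macrophages. Mmp8 stood at 3755 and 2468 CPM in the neutrophil libraries of day 1 and at 4902 and 5428 on day 14. Mmp9 reached 6028 and 4116 CPM in the day 1 libraries and 6055 and 6409 in those of day 14. In neutrophils neither passed the test over time: the log2 fold change of day 14 against day 1 was 0.73 (SE 0.26, adjusted p = 0.049) for Mmp8, under the fold threshold, and 0.30 (SE 0.44, adjusted p = 0.66) for Mmp9. Without the first neutrophil library of day 1, the change of Mmp8 was 1.07, over the fold threshold. In CX3CR1+ macrophages Mmp8 was at 218 and 219 CPM on day 1, then at 151 and 163 on day 14, whereas Mmp9 was at 0.919 and 6.04 on day 1, then at 7.12 and 10.1 on day 14. CX3CR1+ macrophages of both days therefore ranked next after neutrophils for Mmp8 and last for Mmp9. Their libraries did not overlap those of the neighbouring groups, except that Mmp8 of day 14 overlapped F4/80- cells of day 1.

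The ratio of the raw counts shows the same split. CX3CR1+ libraries held 237 and 36.3 counts of Mmp8 for each count of Mmp9 on day 1 and 21.1 and 16.1 on day 14. The ratio was between 0.599 and 0.847 in neutrophils, between 0.153 and 0.883 in CD9+ macrophages and between 0.306 and 0.631 in F4/80- cells. The ratio of 237 rests on 21 counts of Mmp9. Relative to neutrophils of the same day, CX3CR1+ macrophages carried 7.02% of the Mmp8 level on day 1 and 3.03% on day 14, against 0.0686% and 0.138% of Mmp9. Among the neutrophil markers, Ly6g was at 0.0678% and 0.196% of the neutrophil level, Retnlg at 0.0448% and 0.139%, and S100a8 at 2.95% and 0.219%, while Csf3r, the receptor of G-CSF, was at 5.75% and 9.86%. In absolute terms Ly6g was at 0.0521 to 0.648 CPM in the 4 CX3CR1+ libraries.

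**Figure D2:**
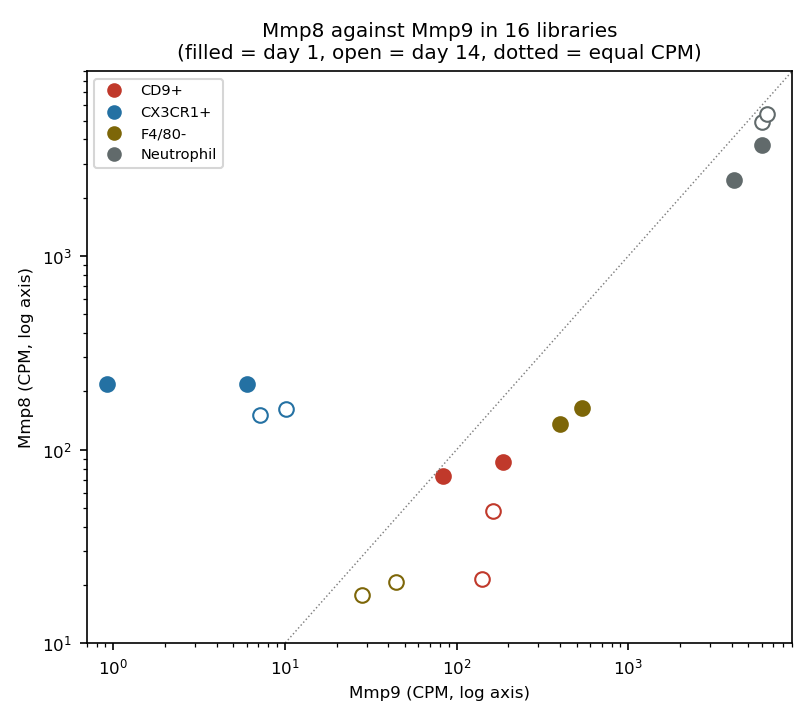
Mmp8 against Mmp9 in each of the 16 libraries, in CPM on log axes, with filled points for day 1, open points for day 14 and a dotted line where both are equal. The 4 CX3CR1+ libraries lie far above the line, at 151 to 219 CPM of Mmp8 with 0.919 to 10.1 of Mmp9, and the other libraries lie below it.

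Both genes fell over time in F4/80- cells. Mmp8 stood at 164 and 136 CPM on day 1, then at 17.8 and 20.8 on day 14, a log2 fold change of -2.96 (SE 0.29, adjusted p = 2.9e-05), and Mmp9 at 536 and 402 on day 1, then at 28.3 and 44.7 on day 14, a log2 fold change of -3.69 (SE 0.50, adjusted p = 0.00042). The libraries of the 2 days did not overlap for either gene. Of the 6 neutrophil markers, 3 were lower on day 14 as well: Retnlg, at 122 and 98.0 CPM and then 10.5 and 12.3, Cxcr2, at 140.3 and 107 and then 39.5 and 38.6, and Csf3r, at 213 and 214 and then 145 and 164. Their part in the Mmp8 and Mmp9 levels was not tested. Ly6g, at 9.63 and 6.94 CPM and then 8.19 and 10.1, was not lower. Nor were S100a8, at 4311 and 3751 and then 5125 and 5206, and S100a9, at 8733 and 7488 and then 9511 and 10352. The sum of the 6, nearly all of it S100a8 and S100a9, was not lower, at 11664 to 13528 CPM on day 1 and 14839 to 15783 on day 14 with all 6 markers over the floor. Nor was the sum of 8 granule genes of neutrophil precursors, led by Ngp and Ltf, at 25793 to 28350 and 30280 to 32794. By mean, Ltf, Ctsg and Prtn3 were lower on day 14, and Elane, Mpo, Camp, Ngp and Chil3 were higher. In CD9+ macrophages Mmp8 fell from 86.7 and 73.3 CPM to 48.2 and 21.6 (log2 fold change -1.19, SE 0.28, adjusted p = 0.0084), and without the second library of day 14 the change was -0.73 with an adjusted p of 0.068, and without the first it was -1.87. Mmp9 was at 186 and 82.9 on day 1, then at 164 and 142 on day 14 in these cells, overlapping, with a log2 fold change of 0.18 (SE 0.45, adjusted p = 0.82) that became -0.28 without the second library of day 1. The neutrophil marker sum in CD9+ macrophages was 2237 to 7054 CPM on day 1 and 5289 to 7582 on day 14, and the summed osteoclast markers (5 of 6 listed, led by Acp5 and Ctsk) were at 97.3 to 187 on day 1 and 222 to 237 on day 14, against 1.20 to 29.2 in every other library. Their part in the Mmp9 level of CD9+ macrophages was not tested.

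Mmp12, the macrophage elastase, was by far highest in CD9+ macrophages of day 14. It stood at 3.88 and 4.63 CPM on day 1, then at 39.2 and 65.5 on day 14 in CD9+ macrophages and reached at most 3.11 in the other 12 libraries, in F4/80- cells. The rise in CD9+ macrophages had a log2 fold change of 3.63 (SE 0.58, adjusted p = 0.0007). The sum of 4 eosinophil markers (Siglecf, Prg2, Epx and Ccr3) rose beside it in the same libraries, from 489 and 561 CPM on day 1 to 5806 and 9368 on day 14, led by the granule genes Prg2 and Epx, while the sum of 8 macrophage markers was 1327 to 1825 on day 1 and 1021 to 1578 on day 14. The part of other cells in the Mmp12 level was not tested. Exons of Mmp12 share 157 of 7237 bases with Mmp1b on the other strand.

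Mmp13, a collagenase of bone and cartilage, was scarce throughout, with at most 76 counts in a library, and highest in CD9+ macrophages of day 1. These held 5.36 and 4.84 CPM on day 1 and 2.30 and 1.52 on day 14. The other populations held 0.340 to 2.47 on day 1, and on day 14 only 1 count in the CX3CR1+ libraries together, 3 in the F4/80- libraries and 1 in the neutrophil libraries. Over time Mmp13 passed the test in neutrophils (log2 fold change -4.42, SE 1.37, adjusted p = 0.026), where 34 counts stood against 1, a ratio per scaled count of 24.8 with an exact 95% interval from 4.16 to 1010 that covers counting error only. Leaving out any of the 4 neutrophil libraries ended this call, with adjusted p from 0.051 to 0.15 and a log2 fold change as far as -7.27 without the second library of day 14. In CD9+ macrophages the log2 fold change was -1.41 (SE 0.78, adjusted p = 0.23), in CX3CR1+ macrophages -3.96 (SE 1.38, adjusted p = 0.076) and in F4/80- cells -3.53 (SE 1.09, adjusted p = 0.072).

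Mmp14, the membrane-type MMP, and Mmp19, a secreted MMP, were both highest in CD9+ macrophages on each day, with CX3CR1+ macrophages next. Mmp14 was at 152 and 241 CPM in CD9+ macrophages on day 1 and at 81.0 and 133 on day 14. In CX3CR1+ macrophages it was at 79.6 and 69.4 on day 1 and at 10.2 and 13.6 on day 14, in F4/80- cells at 17.4 in both libraries and then at 1.09 and 2.28, and in neutrophils at 10.7 and 13.3 and then at 1.44 and 1.13. It fell in CX3CR1+ macrophages (log2 fold change -2.64, SE 0.28, adjusted p = 2.1e-05), in F4/80- cells (-3.38, SE 0.35, adjusted p = 4.3e-05) and in neutrophils (-3.22, SE 0.41, adjusted p = 3.3e-05). In CD9+ macrophages the change was -0.87 (SE 0.25, adjusted p = 0.029), under the fold threshold although the 2 days did not overlap. It passed without the first library of day 1 or the second of day 14.

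Mmp19 fell in all 4 populations. It was at 223 and 428 CPM in CD9+ macrophages on day 1 and 43.1 and 70.3 on day 14 (log2 fold change -2.52, SE 0.30, adjusted p = 6.7e-05), and at 119 and 161 and then 13.5 and 15.6 in CX3CR1+ macrophages (-3.26, SE 0.32, adjusted p = 1e-05). In F4/80- cells it was at 22.1 and 29.2 and then 6.16 and 3.74 (-2.36, SE 0.34, adjusted p = 0.00068). The largest of the 4 changes was in neutrophils, from 35.6 and 40.3 to 1.08 and 0.718 CPM, where 9 and 7 counts were left (-5.40, SE 0.47, adjusted p = 7.4e-07). These calls, and the 3 of Mmp14, held under every alternative tried. In the neutrophil libraries the sum of 8 macrophage markers was 588 to 590 CPM on day 1 and 182 to 187 on day 14. The part of other cells in the Mmp14, Mmp19 and Timp1 levels of neutrophils was not tested. Mmp19 shares 789 of its 3533 exon bases with Tmem198b on the other strand, which had 1385 counts over all libraries against 16689 of Mmp19.

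Among the inhibitors, Timp1 fell and Timp2 rose in CD9+ macrophages. Timp1, the inducible inhibitor that binds pro-MMP9, was at 13.1 and 19.8 CPM in CD9+ macrophages on day 1 and 1.63 and 1.82 on day 14. CX3CR1+ macrophages held 6.26 and 6.46 and then 0.0869 and 1.57, F4/80- cells 3.55 and 2.15 and then 0.217 and 0.0813, and neutrophils 0.299 and 1.22 and then 0 counts in both libraries. The order of the populations by mean was the same on both days, from CD9+ macrophages down to neutrophils. Timp1 fell in all 4: the log2 fold change was -3.25 in CD9+ macrophages (SE 0.71, adjusted p = 0.0066), -2.95 in CX3CR1+ macrophages (SE 0.75, adjusted p = 0.019) and -4.14 in F4/80- cells (SE 0.95, adjusted p = 0.019), where 120 counts stood against 4 (ratio per scaled count 18.4, exact 95% interval 7.01 to 68.7). In neutrophils the day 1 mean was 2.28-fold a floor of 3 counts per day 14 library (adjusted p = 0.039). The first library of day 1, with 4 counts at 0.299 CPM, lay under that floor of 0.334 CPM, and only the second lay over it. With at most 188 counts a library, these calls depended on single libraries. The call in CD9+ macrophages was lost without either library of day 14, that in CX3CR1+ macrophages without either of day 1 or the first of day 14, that in F4/80- cells without the first of day 1 or either of day 14, and that in neutrophils without the second of day 1, either of day 14 or either CX3CR1+ library of day 1, with adjusted p between 0.05 and 0.2 and the direction kept. Without the second CX3CR1+ library of day 14, which held 17 counts of Timp1 against 1 in the first, the log2 fold change in CX3CR1+ macrophages was -6.05. In CX3CR1+ libraries the sum of 7 fibroblast markers ranged from 0.99 to 1.40 CPM on day 1 and from 2.43 to 82.3 on day 14. That of 3 chondrocyte markers ranged from 1.67 to 16.1 on day 14. The part of such cells in the Timp1 level was not tested.

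Timp2, the constitutive inhibitor, was highest in neutrophils and was the only member besides Mmp12 to rise in CD9+ macrophages. In neutrophils it was at 179 and 221 CPM on day 1, then at 341 and 333 on day 14, a log2 fold change of 0.75 (SE 0.29, adjusted p = 0.065). In CD9+ macrophages it was at 24.0 and 10.3 on day 1, then at 114 and 174 on day 14, a log2 fold change of 3.05 (SE 0.32, adjusted p = 2.6e-05) that held under every alternative. The eosinophil marker sum was higher in these libraries too, as given for Mmp12, and the sum of 7 fibroblast markers went from 2.74 and 4.58 CPM to between 28.5 and 36.9, with Pdgfra at or under the floor on both days. The part of either in the Timp2 level was not tested. CX3CR1+ macrophages went from 14.0 and 11.5 to 23.1 and 31.5 CPM, a log2 fold change of 1.10 (SE 0.31, adjusted p = 0.031). Scaling by library size only gave 1.06 with an adjusted p of 0.051, and leaving out any of the 4 CX3CR1+ libraries ended the call as well, with 0.86 to 1.30 and adjusted p from 0.062 to 0.26. The fibroblast marker sum was 0.99 and 1.40 CPM in these macrophages on day 1 and 2.43 and 82.3 on day 14, then with all 7 markers over the floor, and that of 3 chondrocyte markers at most 0.306 and then 1.67 and 16.1. Their part was not tested. F4/80- cells were at 13.03 and 14.2 and then at 6.89 and 11.5 CPM (log2 fold change -0.58, SE 0.33, adjusted p = 0.37).

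**Figure D3:**
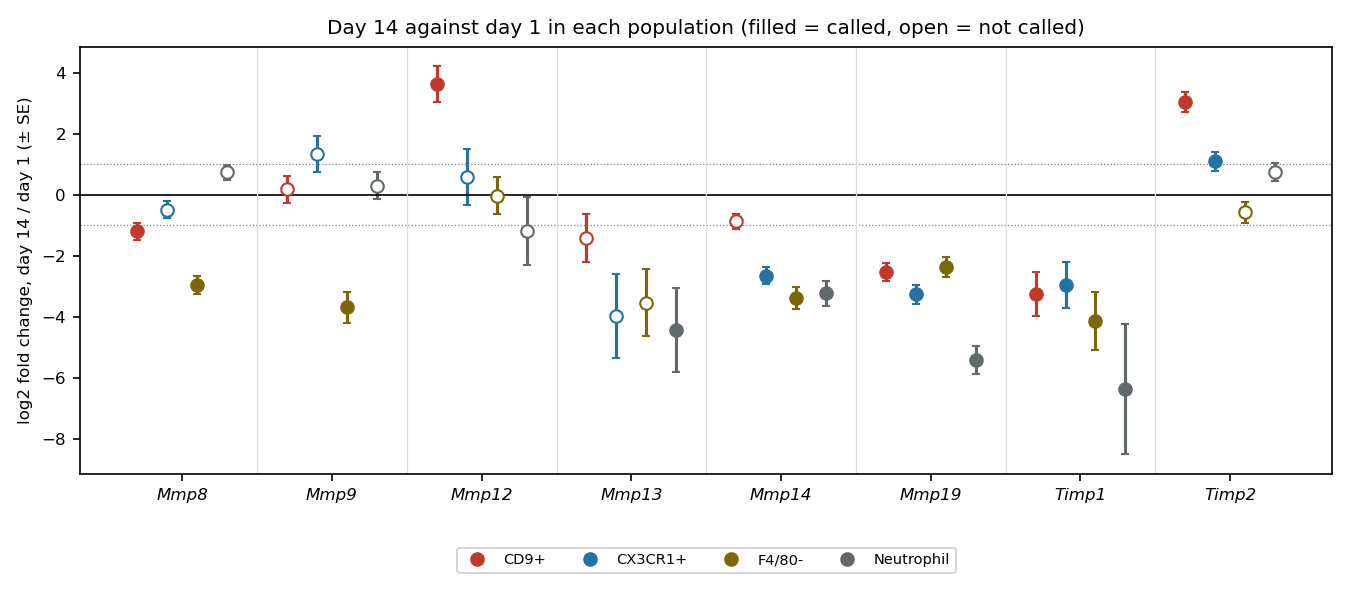
Log2 fold change of day 14 against day 1 for the 8 tested members in each population, with the standard error as bar, filled where the test was passed and dotted lines at the fold threshold. Mmp19 and Timp1 are below 0 in all 4 populations, and Mmp12 and Timp2 are above it by more than 3 in CD9+ macrophages.

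Counted over the 8 tested members, day 14 differed from day 1 in 18 of 32 tests, 3 higher and 15 lower. Mmp13 entered the tests only through CD9+ macrophages of day 1, Mmp12 only through CD9+ macrophages and Timp1 only through 3 groups of day 1. Calls of these members that are higher in those groups are not independent of the filter, here and in the counts below. In CD9+ macrophages 2 members rose (Mmp12 and Timp2) and 3 fell (Mmp8, Mmp19 and Timp1), where 8.23% of all tested genes passed. In CX3CR1+ macrophages 1 rose (Timp2) and 3 fell (Mmp14, Mmp19 and Timp1), with 5.86% of all genes. In F4/80- cells 5 fell (all but Mmp12, Mmp13 and Timp2), with 3.25%, and in neutrophils 4 fell (Mmp13, Mmp14, Mmp19 and Timp1), with 14.1%. The median log2 fold change of the members was -1.03, -1.56, -3.17 and -2.20 in these populations in turn, while that of all tested genes lay between -0.02 and 0.03. Of the 18 calls, 11 held under every alternative, including each library left out in turn.

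Whether the change over time differed between CD9+ macrophages and another population was tested as an interaction, and 12 of 24 such tests passed. Against CX3CR1+ macrophages 2 of 8 members passed, with 2.28% of all genes, against F4/80- cells 5, with 1.69%, and against neutrophils 5, with 8.03%. Mmp14 and Timp2 differed in all 3 comparisons. The log2 change of Mmp14 was higher in CD9+ macrophages by 1.77 (SE 0.37, adjusted p = 0.017) than in CX3CR1+ macrophages, by 2.51 (SE 0.44, adjusted p = 0.01) than in F4/80- cells and by 2.35 (SE 0.50, adjusted p = 0.007) than in neutrophils. That of Timp2 was higher by 1.95 (SE 0.44, adjusted p = 0.025), 3.62 (SE 0.46, adjusted p = 0.0016) and 2.29 (SE 0.42, adjusted p = 0.0028) in the same order.

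The other interactions involved a single population or 2 of them. The change of Mmp8 in CD9+ macrophages lay 1.76 above that of F4/80- cells (SE 0.39, adjusted p = 0.031), and against neutrophils the difference was -1.93 (SE 0.38, adjusted p = 0.0045). Mmp9 differed from F4/80- cells by 3.87 (SE 0.66, adjusted p = 0.0089) and Mmp19 from neutrophils by 2.89 (SE 0.60, adjusted p = 0.0062). Mmp12 differed from F4/80- cells by 3.66 (SE 0.82, adjusted p = 0.033) and from neutrophils by 4.81 (SE 1.21, adjusted p = 0.019), and from CX3CR1+ macrophages by 3.03 without passing (SE 1.08, adjusted p = 0.17). Of the 12 calls, 3 held whichever library was left out, namely Timp2 against F4/80- cells and neutrophils and Mmp8 against neutrophils. The other 9 kept their direction and lost the threshold without 1 or more of the libraries compared. For Mmp14 against CX3CR1+ macrophages these were the second CD9+ library of day 14 and the first CX3CR1+ library of either day (adjusted p 0.072 to 0.11), against F4/80- cells the first F4/80- library of day 14 (0.092) and against neutrophils the second neutrophil library of day 14 (0.063), which also decided Mmp19 (0.064). For Timp2 against CX3CR1+ macrophages they were the second CD9+ library of day 14 and any CX3CR1+ library (0.058 to 0.14), and for Mmp9 the first F4/80- library of day 14 (0.082). For Mmp8 against F4/80- cells they were the second CD9+ library of day 1, the first of day 14 and any F4/80- library (0.05 to 0.17), with a difference of 1.07 without the first CD9+ library of day 14. For Mmp12 against F4/80- cells they were either CD9+ or F4/80- library of day 14 and the second F4/80- library of day 1 (0.069 to 0.19). For Mmp12 against neutrophils they were the second CD9+ library of day 14 and the first neutrophil library of either day (0.068 to 0.65), with a difference of 2.07 without that of day 1 and of 9.79, still passing, without the second neutrophil library of day 14.

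**Figure D4:**
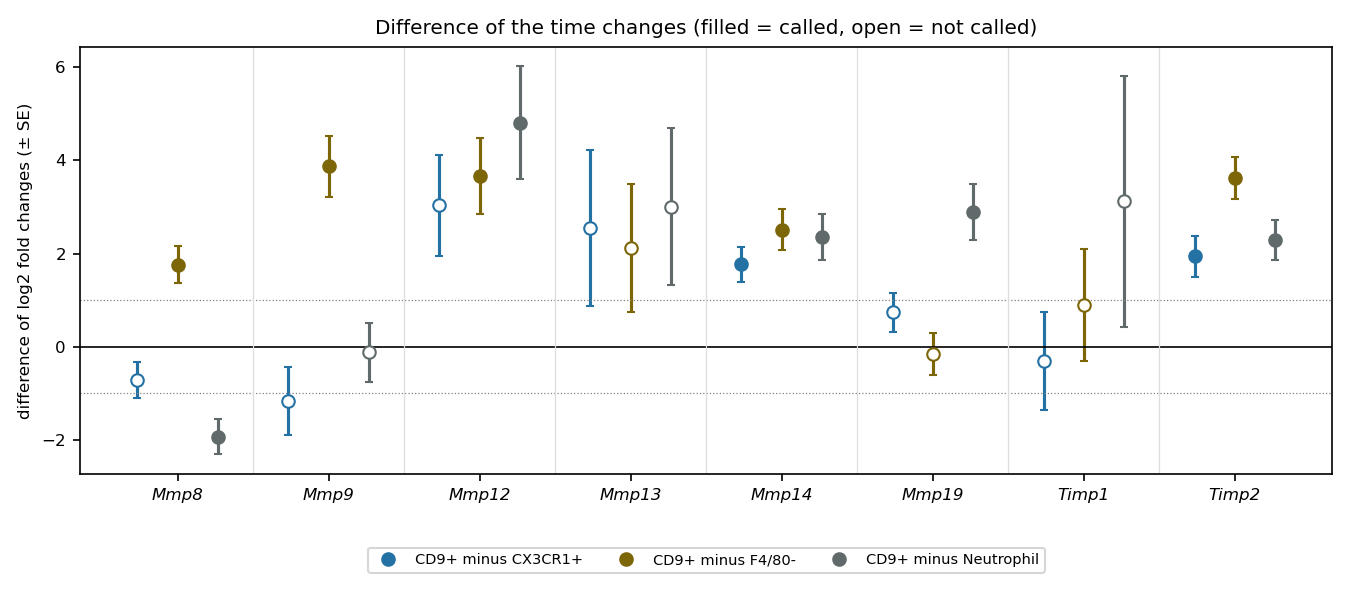
Difference between the log2 change over time in CD9+ macrophages and that in each other population for the 8 tested members, with the standard error as bar and filled points where the test was passed. Mmp14 and Timp2 are filled in all 3 comparisons, and only Mmp8 against neutrophils is filled below 0.

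Between populations on the same day, 71 of 96 tests of members passed, 47 higher in the first population named and 24 lower. On day 1, CD9+ macrophages differed from CX3CR1+ macrophages in 6 of 8 members, where 8.23% of all genes passed, 5 of them higher (Mmp9, Mmp12, Mmp13, Mmp14 and Mmp19) and Mmp8 lower. Mmp9 differed most, by a log2 fold change of 5.31 (SE 0.57, adjusted p = 1.4e-05), and Mmp8 ran the other way at -1.45 (SE 0.27, adjusted p = 0.0019), both under every alternative. With 21 and 116 counts of Mmp9 in the CX3CR1+ libraries, that difference was 4.47 without the first of them and 7.16 without the second. Of the others, Mmp14 at 1.40 (SE 0.26, adjusted p = 0.0017) held throughout, Mmp12 did not pass without the first CX3CR1+ library (adjusted p 0.062), and Mmp13 did not pass without any 1 CX3CR1+ library of either day, without either CD9+ library of day 14 or with no filter (0.05 to 0.18). Mmp19 at 1.22 (SE 0.29, adjusted p = 0.0093) fell short without the second CD9+ library, without the first CX3CR1+ library or with scaling by library size only, at 0.67, 0.99 and 0.95. Against F4/80- cells 4 passed (15.4% of all genes), with Mmp14, Mmp19 and Timp1 higher in CD9+ macrophages and Mmp9 lower. Mmp9 was lower by a log2 fold change of -1.80 (SE 0.46, adjusted p = 0.0084), which became -1.34 with an adjusted p of 0.051 without the second CD9+ library and -1.59 with 0.06 without the first F4/80- library. Timp1 did not pass without the second F4/80- library (0.097).

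On day 14, CD9+ macrophages exceeded F4/80- cells in 7 of 8 members, where 7.7% of all genes passed, the exception being Mmp8 with a log2 fold change of 0.86 (SE 0.29, adjusted p = 0.063). They exceeded CX3CR1+ macrophages in 6 members and were lower in Mmp8, where 14.2% of all genes passed, and the test of Timp1 did not pass (1.07, SE 0.81, adjusted p = 0.38). The largest of these differences from CX3CR1+ macrophages were in Mmp12 (6.46, SE 0.72, adjusted p = 7.8e-06), Mmp9 (4.15, SE 0.54, adjusted p = 3.4e-05) and Mmp14 (3.17, SE 0.29, adjusted p = 1e-06), beside Mmp13, whose 39 counts stood against 1 (ratio per scaled count 42.8, exact 95% interval 7.24 to 1730) and which did not pass without the first CX3CR1+ library (adjusted p 0.086). Mmp9 was lower in CD9+ macrophages than in F4/80- cells on day 1 and higher on day 14, by 2.07 (SE 0.47, adjusted p = 0.0082), or 1.76 with an adjusted p of 0.13 without the first F4/80- library of day 14. Of the other calls against F4/80- cells, that of Mmp13 was lost without either CD9+ or F4/80- library of day 14 (0.057 to 0.22), and that of Timp1, at 35 counts against 4, without any of 8 libraries, namely those of F4/80- cells on both days, CD9+ macrophages on day 14 and CX3CR1+ macrophages on day 1 (0.051 to 0.25).

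CX3CR1+ macrophages and F4/80- cells differed in 4 members on day 1 (21.1% of all genes) and in 5 on day 14 (21.5%). Mmp14 and Mmp19 were higher in CX3CR1+ macrophages on both days, by log2 fold changes of 2.10 and 2.45 on day 1 and of 2.84 and 1.55 on day 14, and Mmp9 was lower, by -7.11 (SE 0.61, adjusted p = 3.2e-07) and -2.08 (SE 0.52, adjusted p = 0.0051). Without the first or the second CX3CR1+ library of day 1, the day 1 difference of Mmp9 was -6.28 or -8.98. Mmp12 passed on day 1 (-2.53, SE 0.71, adjusted p = 0.011) and not on day 14 (-1.90, SE 0.77, adjusted p = 0.066), and Mmp8 (3.02, SE 0.29, adjusted p = 1e-06) and Timp2 (1.58, SE 0.33, adjusted p = 0.0015) were higher on day 14. The day 14 call of Mmp9 was lost without the first CX3CR1+ or the second F4/80- library, and that of Mmp12 without the first CX3CR1+ or the second F4/80- library of day 1.

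Comparisons with neutrophils passed for many members, but also for many genes. All 8 members differed from CD9+ macrophages on day 1 and on day 14 (49.5% of all genes on either day), with Mmp8, Mmp9 and Timp2 lower and the other 5 higher in CD9+ macrophages. Mmp13 on day 1 no longer passed with a block for the replicate number (adjusted p 0.055), with no filter, or without any 1 of the 8 libraries of these populations (0.05 to 0.16). Timp2 on day 14, at -1.22, was at -0.73 with scaling by library size only and at -0.93 without the first CD9+ library, both under the fold threshold. Mmp12 passed whichever library was left out, but its log2 fold change rested on 0 to 15 counts in a neutrophil library. It moved from 2.73 to 5.47 on day 1 without the first neutrophil library and from 7.53 to 12.52 on day 14 without the second. Its lowest values under any alternative were 1.90 on day 1 and 6.65 on day 14. CX3CR1+ macrophages differed in 6 members on day 1 (51%) and 6 on day 14 (48%), and F4/80- cells in 5 on day 1 (49%) and 5 on day 14 (48.7%), in each case with Mmp8, Mmp9 and Timp2 lower. The higher calls of Mmp12 on both days and of Timp1 on day 1 in F4/80- cells were lost without single libraries of the 2 populations (0.065 to 0.24). Mmp9 differed between CX3CR1+ macrophages and neutrophils on day 1 by a log2 fold change of -10.55 (SE 0.68, adjusted p = 4.3e-09), or -9.65 without the first CX3CR1+ library and -12.35 without the second. Timp1 was at 0 counts in neutrophils of day 14. Against a floor of 3 counts per library there, its mean was 5.16-fold higher in CD9+ macrophages and 2.48-fold higher in CX3CR1+ macrophages. The first CX3CR1+ library held 1 count, under that floor, and the second 17. The CX3CR1+ call was lost without the second CX3CR1+ library or either neutrophil library of day 14 (log2 fold change 3.43 to 6.54).

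To compare levels between genes, CPM were divided by the exon length of each gene, and the share of each member in the sum over the 9 was taken within each library. In neutrophils Mmp8 and Mmp9 together made up nearly the whole sum, Mmp8 with 45.2% to 54.1% and Mmp9 with 43.8% to 51.6%. Mmp9 led in neutrophils on day 1 and Mmp8 on day 14, while without division by exon length Mmp9 led on both days. F4/80- cells were led by Mmp9 at 40.8% to 64.2%, with Mmp8 at 28.6% to 37.6%. CX3CR1+ macrophages were led by Mmp8 alone, which took 60.6% and 56.5% on day 1 and 82.0% and 77.3% on day 14. CD9+ macrophages had the most even mixture: Mmp19 led on day 1 with 31.5% and 49.9%, and on day 14 Mmp9 took 35.8% and 27.1% and Timp2 22.6% and 30.3%. The 3 inhibitors together took 10.5% and 10.3% of the sum in CD9+ macrophages on day 1 and 24.1% and 31.7% on day 14. They took 6.41% to 11.5% in CX3CR1+ macrophages, 3.15% and 3.22% on day 1 and 10.3% and 11.7% on day 14 in F4/80- cells, and 1.40% to 2.58% in neutrophils. These are shares of transcripts and not of protein or activity, and they were not tested.

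**Figure D5:**
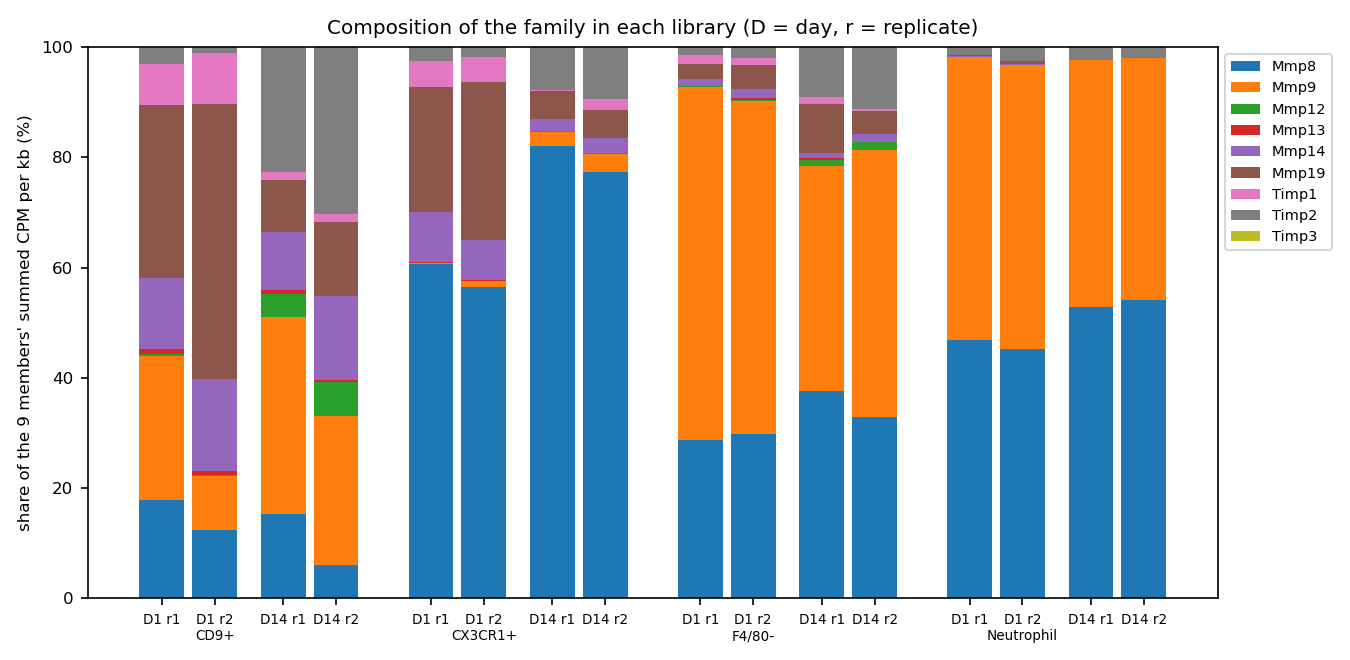
Share of each member in the summed CPM per kb of the 9 members, in percent, as 1 stacked bar for each of the 16 libraries, by population, day and replicate. Mmp8 and Mmp9 fill the neutrophil bars, Mmp8 leads in CX3CR1+ macrophages, and the Timp2 share of CD9+ macrophages is 22.6% and 30.3% on day 14 against 3.07% and 1.09% on day 1.

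Over the 16 libraries, log2 CPM of Mmp14, Mmp19 and Timp1 ran together, with Pearson correlations of 0.934 (Mmp14 and Mmp19), 0.909 (Mmp19 and Timp1) and 0.887 (Mmp14 and Timp1), whereas Mmp8 and Mmp9 reached 0.644 and Timp1 and Timp2 -0.446. The libraries fall into populations and days, so these values describe shared patterns over the 8 groups. The tested genes most like the members by this measure were, for 7 of the 8, Skap2 for Mmp8 (0.983), Retnlg for Mmp9 (0.975), Sh3bgrl2 for Mmp13 (0.924), Dab2 for Mmp14 (0.977), Slc39a14 for Mmp19 (0.974) and for Timp1 (0.958), and Agrn for Timp2 (0.952). Sdc4, a cell-surface heparan sulfate proteoglycan, was among the 3 closest for Mmp14, Mmp19 and Timp1 alike.

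Other genes of matrix proteolysis were taken from lists. Of 17 further MMPs and inhibitors, 4 were tested (Mmp25, Mmp27, Mmp28 and Reck). Mmp28 rose in CD9+ (log2 fold change 1.81, SE 0.44, adjusted p = 0.011) and CX3CR1+ macrophages (1.48, SE 0.41, adjusted p = 0.029), and Mmp25, a membrane-anchored MMP of neutrophils at 487 to 752 CPM there, fell in F4/80- cells (-1.01, SE 0.22, adjusted p = 0.013). The shares of all genes that passed over time, given above for the members, were 8.23%, 5.86%, 3.25% and 14.1% in CD9+ macrophages, CX3CR1+ macrophages, F4/80- cells and neutrophils. Of 7 tested ADAM proteases, Adam8 fell in CD9+ macrophages (-1.07, SE 0.20, adjusted p = 0.0025), Adam8 fell (-3.45, SE 0.23, adjusted p = 2.6e-07) and Adam19 rose (1.04, SE 0.16, adjusted p = 0.00048) in CX3CR1+ macrophages, Adam8 and Adam9 fell in F4/80- cells (-2.06 and -1.04), and Adam17 and Adam9 fell in neutrophils (-1.56 and -1.52). Of 17 tested cathepsins and cystatins, none rose, and 4, 3, 5 and 6 fell in the populations in that order, among them Ctsl in all but neutrophils. Serpinb2, which encodes a serpin that inhibits plasminogen activators, rose in CD9+ macrophages (1.48, SE 0.32, adjusted p = 0.0061) and fell in the other 3. Spp1, which encodes the matrix protein and MMP substrate osteopontin, fell in all 4 populations, by log2 fold changes from -2.82 to -4.91.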

How the data were processed

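Bulk RNA-seq was made from 16 pools of sorted cells. The deposited values are raw read counts per gene, for which the authors used Cutadapt to trim adapters, STAR to map to mm10 and the exons of Gencode M23 to count. The strand setting of the counting and any filter on the listed genes are not given in the sources used here, and the smallest total of a listed gene was 17 counts. Here the counts were fitted with edgeR 4.0.16 (R 4.3.3): TMM factors, a filter of a mean of 3 CPM in at least 1 group, 1 quasi-likelihood model of the 16 libraries with 8 group means, and contrasts for time, population and their interaction, with Benjamini-Hochberg adjustment over 11998 genes. Each standard error (SE) was derived from the test, as the size of the log2 fold change divided by the square root of its F statistic. The common biological coefficient of variation was 0.178. An exact permutation test of 2 libraries against 2 cannot go below p = 0.333, so p-values rest on the spread pooled over all groups. No 2 libraries of a group agreed within counting noise. Exon lengths came from GENCODE M21 (GRCm38) and were those of the merged exons of all annotated transcripts of a gene. Alternatives were DESeq2 1.42.0, scaling by library size only, no filter, a replicate block, no fold threshold, and each library left out. Named genes were the 9 members, the 3 tested genes most correlated with each, the sort genes, cell type markers given beside a result, and in each list of related genes those with the highest and lowest passing log2 fold change. Genes of these lists outside the rule (such as Mmp27 and Reck) were named after their values were seen. A few results of this rule are not reported here. Members and lists were chosen with earlier results of these data known.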

Additional observations from a re-analysis of the deposited data

Results flagged for a closer look

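The change of a member over time differed between CD9+ macrophages and another population, by a test of the difference itself in edgeR's quasi-likelihood model, in 12 cases. Each value is the log2 fold change of day 14 against day 1 in CD9+ macrophages minus that in the other population, with 2 libraries in each group. Against CX3CR1+ macrophages it was 1.77 for Mmp14 and 1.95 for Timp2. Against F4/80- cells it was 1.76 for Mmp8, 3.87 for Mmp9, 3.66 for Mmp12, 2.51 for Mmp14 and 3.62 for Timp2. Against neutrophils it was -1.93 for Mmp8, 4.81 for Mmp12, 2.35 for Mmp14, 2.89 for Mmp19 and 2.29 for Timp2. The 3 that passed under every alternative were Timp2 against F4/80- cells and against neutrophils, and Mmp8 against neutrophils. All 12 share the 4 CD9+ libraries, and those of day 1 were the least alike pair of replicates. In the CD9+ libraries the eosinophil marker sum was 489 to 561 CPM on day 1 and 5806 to 9368 on day 14. The macrophage marker sum was 1327 to 1825 and then 1021 to 1578. The part of other cells in the changes of any member in CD9+ macrophages was not tested.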

How the results depend on the processing

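The 18 member calls over time were 19 with DESeq2, 17 with scaling by library size only, 18 with no filter, 20 with no fold threshold and 15 to 19 with a library left out. The 71 calls between populations were 72, 71, 69, 72 and 66 to 71 under the same alternatives, and the 12 interaction calls 13, 12, 12, 12 and 8 to 12. All 101 calls held with DESeq2, 98 with library size scaling, 99 with no filter, and 1520 of 1616 over all libraries left out, where the lone library is assumed to vary like the other groups. No call changed direction.

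With the replicate block within each day the calls were 18, 70 and 12, Mmp13 between CD9+ macrophages and neutrophils on day 1 was lost, and the log2 difference of Mmp13 between F4/80- cells and neutrophils on day 1 turned to -0.13. Populations of a day shared mice, but no label says that a number marks the same pool. The deviations of same-numbered libraries correlated by 0.0132 to 0.144 over the 12 pairs of populations.

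Differences that did not pass could change sign. With library size scaling these were, on day 1, Mmp19 between F4/80- cells and neutrophils (0.044), on day 14 Mmp13 between CX3CR1+ macrophages and neutrophils (0.18), and the interactions of Mmp19 with F4/80- cells (0.074) and Mmp9 with neutrophils (0.018). This scaling moved the all-gene median by up to 0.608 on the log2 scale. With libraries left out, the change over time ranged from -0.28 to 0.88 for Mmp9 in CD9+ macrophages, and for Mmp12 from -0.56 to 0.66 in F4/80- cells and from -6.17 to 1.56 in neutrophils. On day 1, Timp2 ranged from -0.31 to 0.91 between CD9+ and CX3CR1+ macrophages, from -0.40 to 0.81 between CD9+ macrophages and F4/80- cells, and from -0.25 to 0.039 between CX3CR1+ macrophages and F4/80- cells. Also on day 1, Mmp13 ranged from -1.56 to 1.27 between CX3CR1+ macrophages and F4/80- cells and from -1.91 to 0.91 between F4/80- cells and neutrophils, and Mmp12 from -1.53 to 2.03 between CX3CR1+ macrophages and neutrophils. On day 14, Mmp13 ranged from -3.80 to 2.58 between CX3CR1+ macrophages and F4/80- cells, from -2.82 to 2.59 between CX3CR1+ macrophages and neutrophils and from -2.80 to 3.78 between F4/80- cells and neutrophils, Timp1 from -0.76 to 3.27 between CX3CR1+ macrophages and F4/80- cells, and Mmp14 from -0.19 to 0.87 between F4/80- cells and neutrophils. The interactions ranged from -1.21 to 2.82 for Timp1 with CX3CR1+ macrophages, from -0.55 to 0.39 for Mmp19 with F4/80- cells and from -0.57 to 0.59 for Mmp9 with neutrophils.

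The share of inhibitors, as a mean of 2 libraries, changed when CPM were not divided by exon length: from 10.4% to 4.51% in CD9+ macrophages on day 1, 6.82% to 4.30% and 9.72% to 12.8% in CX3CR1+ macrophages on days 1 and 14, 3.19% to 2.49% and 11.0% to 12.5% in F4/80- cells, and 2.18% to 2.88% in neutrophils on day 14. In CD9+ macrophages on day 14 it went from 27.9% to 26.2%.

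Counts over all genes moved more than those of the members. DESeq2 gave 439 and 379 genes for the interactions with CX3CR1+ macrophages and F4/80- cells, against 273 and 203. Leaving out a library gave 123 to 907 and 15 to 961 for these, 552 to 1443 for the interaction with neutrophils (963), and over time 577 to 1745 in CD9+ macrophages (988), 434 to 883 in CX3CR1+ macrophages (703) and 165 to 537 in F4/80- cells (390). Between CD9+ macrophages and F4/80- cells it gave 1473 to 2788 on day 1 (1847) and 534 to 1097 on day 14 (924). With no fold threshold, 10 of the comparisons rose by over 1.5 times, as from 988 to 2124 genes over time in CD9+ macrophages. With 2 libraries a group and few counts of Mmp13, Timp1 and Timp3, small differences in these genes were not detectable at this depth.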
